A study of Mus musculus with 16 samples.

Results

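The 10 genes described here make, move or burn pyruvate and lactate: the lactate dehydrogenase subunits Ldha and Ldhb, the pyruvate dehydrogenase subunits Pdha1, Pdhb and Dlat, the kinases Pdk1 and Pdk3, the plasma membrane carriers Slc16a1 and Slc16a7, and the mitochondrial carrier subunit Mpc1. They were taken by GENCODE symbol from the authors' deposited gene tables, where all 10 were found among 49585 gene identifiers. Polyadenylated RNA of mouse embryos at the 2-cell stage had been sequenced with Smart-seq2, which covers whole transcripts and does not record the strand. Zygotes had been injected with double-stranded RNA against Suv39h2 (knockdown, 6 libraries), injected with double-stranded RNA against LacZ (LacZ control, 6 libraries), or left non-injected (4 libraries). LacZ is a bacterial gene that mouse cells lack, and double-stranded RNA triggers RNA interference in mouse oocytes and early embryos. Suv39h2 encodes a histone H3 methyltransferase of constitutive heterochromatin.

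In all 3 groups the father was DBA, the mother was an F1 of C57BL/6J and CBA/H, and the culture medium was KSOM. The design text gives pools of 5 embryos per library, whereas the extraction label speaks of a single embryo. The treatment label names Suv39h1 RNA, wild type or mutant, which the other labels give for none of these libraries. Nothing in the labels says that libraries of a group came from separate collections, so the p-values measure the spread between libraries, which may be technical.

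Early mouse embryos are known for living on pyruvate and lactate. The zygote needs pyruvate, the 2-cell embryo can also use lactate, and glucose becomes a main fuel only towards the blastocyst. Monocarboxylate transporters carry both acids through the plasma membrane, lactate dehydrogenase interconverts them in the cytosol, and the mitochondrial pyruvate carrier brings pyruvate to the pyruvate dehydrogenase complex, which turns it into acetyl-CoA. Pyruvate dehydrogenase kinases switch that complex off by phosphorylating its alpha subunit, and phosphatases switch it on again.

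The deposited tables hold, for each gene, 1 mean normalized count over all libraries and the log2 fold change, standard error and p-values of each comparison made with DESeq2, so no value of a single library or group can be shown and the depth per library is unknown. A gene is named as called where the adjusted p in the authors' deposited table was under 0.05. In log2 units with standard errors, Suv39h2 itself fell by 1.95 ± 0.28 in knockdown against LacZ control and by 1.79 ± 0.29 against non-injected embryos, per the authors' deposited table (adjusted p = 4.72e-08 and 2.21e-06). Since whole embryos were used, a smaller number of cells that use a gene and less of its RNA in each cell cannot be told apart, and all values are relative to the rest of the polyadenylated RNA. For every gene the log2 values of knockdown over LacZ control and of LacZ control over non-injected add up to that of knockdown over non-injected (to within 4.16e-08), so the 3 comparisons share their groups and are not independent of each other.

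The lactate dehydrogenase transcript of these embryos was mainly Ldhb. Per kilobase of merged exons, Ldhb had a mean normalized count of 3840 and Ldha one of 199, which puts the level of Ldhb 19.3-fold above that of Ldha. Before division by merged exons of 1570 and 3310 bases, the mean normalized counts were closer, at 6028 and 659. Ldhb encodes the subunit typical of heart muscle and of the mouse oocyte, and Ldha the subunit typical of skeletal muscle and other glycolytic tissue. Ldhb ranked 77 of all genes by its mean normalized count of 6028, above 99.8% of the genes with any count.

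Next in level per kilobase came Mpc1 with 665, Pdhb with 422 and Pdk3 with 213, all in mean normalized counts per kilobase. Below Ldha stood Pdha1 with 138, Slc16a1 with 129, Pdk1 with 36.4 and Dlat with 34.1 mean normalized counts per kilobase. Slc16a7 was close to absent, at 0.477 per kilobase and a mean normalized count of 5.64. Neighbours in this order, such as Pdk3 and Ldha or Pdk1 and Dlat, cannot be separated with an error, since the tables give no spread for the levels. The lengths are those of all annotated exons, so a gene with a long exon that these embryos do not use is placed too low.

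**Figure D1:**
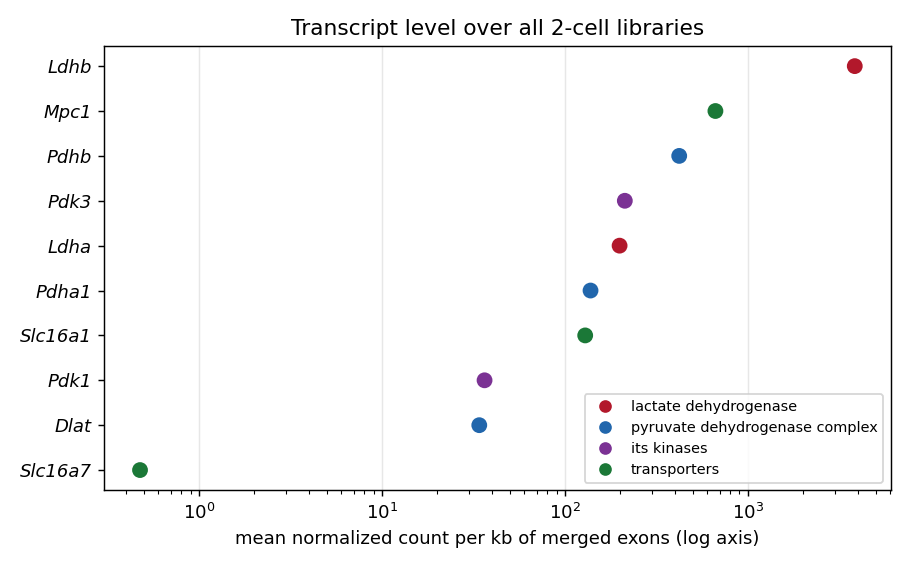
Mean normalized count over all libraries per kilobase of merged exons (log axis) for each of the 10 genes, coloured by role. Ldhb lies at 3840, ahead of Mpc1 at 665, and Slc16a7 at 0.477 lies far below the other 9.

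Ldhb and Pdha1 are the members with a called difference, and Ldha is the close relative of Ldhb without one, so the sequences just before a transcription start that RefSeq lists for each are shown side by side. Each is the 250 bases upstream of the start in RefSeq's GRCm38.p6 annotation, read on the gene's strand. Matches to the motifs CCAAT (a common promoter box) and ACGTG (a form of the cores bound by hypoxia-inducible and E-box factors) on either strand are in capitals. The windows are chr6:142507958-142508207 on the minus strand for Ldhb, chr7:46845554-46845803 on the plus strand for Ldha, where it is the first of 2 listed windows and lies inside the gene's GENCODE span, and chrX:160138431-160138680 on the minus strand for Pdha1.
Ldhb: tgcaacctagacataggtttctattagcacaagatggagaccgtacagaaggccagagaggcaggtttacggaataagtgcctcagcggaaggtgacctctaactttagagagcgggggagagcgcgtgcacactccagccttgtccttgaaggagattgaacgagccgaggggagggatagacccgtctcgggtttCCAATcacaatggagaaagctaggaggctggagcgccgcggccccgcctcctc
Ldha: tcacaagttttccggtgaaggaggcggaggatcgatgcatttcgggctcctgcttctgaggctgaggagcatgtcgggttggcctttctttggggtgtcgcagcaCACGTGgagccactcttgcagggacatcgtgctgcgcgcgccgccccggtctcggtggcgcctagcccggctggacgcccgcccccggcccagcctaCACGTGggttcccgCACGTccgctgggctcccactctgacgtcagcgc
Pdha1: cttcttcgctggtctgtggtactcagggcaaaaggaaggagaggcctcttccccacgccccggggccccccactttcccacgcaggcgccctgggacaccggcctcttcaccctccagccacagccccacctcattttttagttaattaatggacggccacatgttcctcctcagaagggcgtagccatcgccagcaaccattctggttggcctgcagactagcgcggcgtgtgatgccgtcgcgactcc
The Ldhb window holds 1 CCAAT and 0 ACGTG, the Ldha window 0 CCAAT and ACGTG at 3 places, and the Pdha1 window neither. Of the 3 places in Ldha, 2 are CACGTG, which reads as ACGTG on both strands. Among all 32851 windows of this length, 33.8% hold CCAAT and 16.6% hold ACGTG. Of the 9 members with a window, 4 hold CCAAT and 4 hold ACGTG in the first listed window. These are matches of letters in a short window and no measurement of binding. Other forms of the cores were not searched, so a window without ACGTG may hold one.

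Both groups of injected embryos had about 2-fold more Ldhb RNA than non-injected embryos. The log2 fold change was 1.13 ± 0.22 for knockdown over non-injected, a 2.19-fold difference with a 95% interval of 1.62 to 2.97 (authors' deposited table; adjusted p = 9.57e-05). For LacZ control over non-injected it was 0.97 ± 0.23, a 1.95-fold difference with an interval of 1.43 to 2.66 (authors' deposited table, adjusted p = 0.00486). Knockdown and LacZ control differed in Ldhb by 0.17 ± 0.21 on the log2 scale, within an interval of -0.25 to 0.58, and that difference was not called (authors' deposited table, adjusted p = 0.766). Among the 7722 genes with a mean normalized count of 100 or more, 83 had a higher fold change than Ldhb in knockdown over non-injected, and 45 had one in LacZ control over non-injected.

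Ldha showed no called difference. On the log2 scale knockdown stood at 0.23 ± 0.22 against LacZ control and 0.29 ± 0.23 against non-injected embryos, and LacZ control at 0.06 ± 0.23 against the non-injected (authors' deposited table; adjusted p = 0.704, 0.470 and 0.998). The interval of Ldha in knockdown over non-injected ran up to a 1.67-fold difference and that of Ldhb began at 1.62-fold, so the intervals overlap narrowly, and the difference between these genes was not tested.

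Ldhb (ENSMUSG00000030246.11, chromosome 6, 142490249 to 142507957, minus strand of GRCm38) shares 20.99% of the 50-base stretches of its transcripts with the pseudogene Gm5514, the only annotated gene that shares any. Gm5514 had a mean normalized count of 28.3. Per the authors' deposited table Gm5514 rose by 1.21 ± 0.32 on the log2 scale in knockdown against non-injected embryos (adjusted p = 0.00452), and LacZ control stood at 0.88 ± 0.33 against them without a call (adjusted p = 0.304). The sources used here do not say how reads that match both were assigned. Ldha (chromosome 7, 46841475 to 46855627, plus strand) shares 9.26% of its stretches with 328 other annotated genes.

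**Figure D2:**
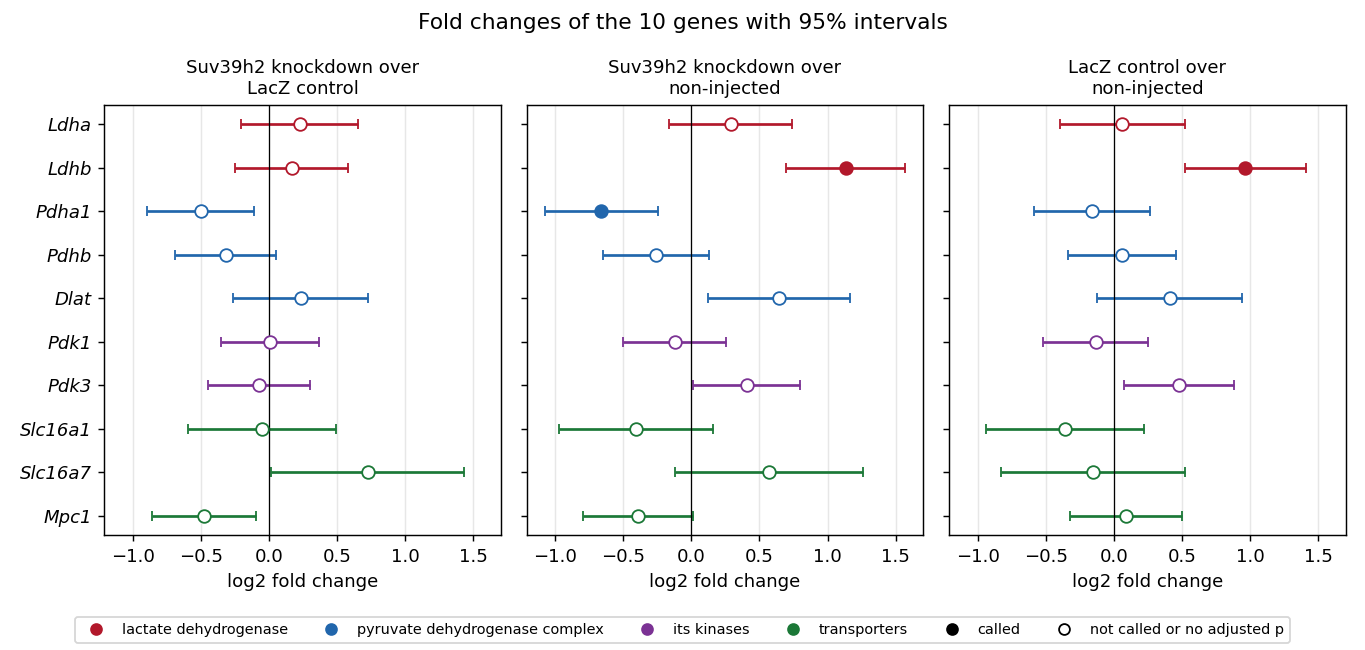
Log2 fold changes of the 10 genes with 95% intervals (1.96 standard errors either side) in the 3 comparisons, from the authors' deposited tables; filled points were called. Ldhb is called in both comparisons with non-injected embryos at 1.13 and 0.97, Pdha1 in knockdown over non-injected at -0.66, and none of the 10 in knockdown over LacZ control.

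Of the pyruvate dehydrogenase subunits, Pdha1 fell in knockdown against non-injected embryos and the other 2 were not called in any comparison. Pdha1, the X-linked alpha subunit that carries the regulatory phosphorylation sites, fell by 0.66 ± 0.21 on the log2 scale in knockdown against non-injected embryos, to 0.632 of their level (95% interval 0.474 to 0.844; authors' deposited table, adjusted p = 0.0179). Against LacZ control its value in knockdown was -0.50 ± 0.20, with an unadjusted p of 0.0112 and an adjusted p of 0.178 in the authors' deposited table. In LacZ control against the non-injected, Pdha1 was at -0.16 ± 0.22 (authors' deposited table, adjusted p = 0.998). Of these Pdha1 differences, the 1 between knockdown and non-injected embryos passed the threshold.

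Pdhb, the beta subunit that pairs with Pdha1, was not called. Knockdown stood at -0.32 ± 0.19 on the log2 scale against LacZ control and at -0.26 ± 0.20 against non-injected embryos, with LacZ control at 0.06 ± 0.20 against the non-injected (authors' deposited table; adjusted p = 0.420, 0.403 and 0.998). Dlat, the acetyltransferase core that holds the lipoyl arms, lay on the other side at 0.64 ± 0.27 for knockdown over non-injected. That value had an unadjusted p of 0.0135 and an adjusted p of 0.0734 in the authors' deposited table, and it was called when fold changes were centred on the median gene and divided by their standard errors (adjusted p = 0.0421, range over 6 alternatives 0.0421 to 0.148). Dlat in knockdown was at 0.23 ± 0.25 against LacZ control, and in LacZ control at 0.41 ± 0.27 against the non-injected, per the authors' deposited table (adjusted p = 0.695 and 0.869).

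Pdha1 (chromosome X, 160122209 to 160138413, minus strand) overlaps exons of Map3k15 on the opposite strand, and without strand the reads there could belong to either gene. Pdha1 shares 12.9% of its 50-base stretches with Map3k15 and 4930519F09Rik. Map3k15 had a mean normalized count of 79.6 against 516 for Pdha1, and stood at -0.19 ± 0.30 on the log2 scale in knockdown against non-injected embryos (authors' deposited table, adjusted p = 0.713). Pdhb (chromosome 14, 8165996 to 8173025, minus strand) shares 11.4% of its 50-base stretches with 12 other annotated genes, and Dlat (chromosome 9, 50634633 to 50659780, minus strand) shares none.

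The kinases Pdk1 and Pdk3 were not called in any comparison. Pdk1, also known as a target of hypoxia-inducible factor, stood on the log2 scale at 0.01 ± 0.18 in knockdown against LacZ control, at -0.12 ± 0.19 in knockdown against the non-injected and at -0.13 ± 0.20 in LacZ control against the non-injected (authors' deposited table, adjusted p = 0.989, 0.715 and 0.998). Its intervals stayed within a log2 fold change of -0.52 to 0.37. Pdk3, the more abundant of both per kilobase, was at 0.41 ± 0.20 in knockdown and at 0.48 ± 0.21 in LacZ control, each against non-injected embryos (authors' deposited table). Both Pdk3 values had an unadjusted p under 0.05 (0.0376 and 0.0195) and missed the threshold once adjusted (0.142 and 0.474 in the authors' deposited table). Between knockdown and LacZ control Pdk3 gave -0.08 ± 0.19 (authors' deposited table, adjusted p = 0.922). Neither Pdk1 (chromosome 2, 71873224 to 71903858, plus strand) nor Pdk3 (chromosome X, 93764607 to 93832201, minus strand) shares a 50-base stretch with another annotated gene.

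Of the carriers, none was called. Mpc1, which forms the mitochondrial pyruvate carrier with Mpc2, had a log2 fold change of -0.48 ± 0.20 for knockdown over LacZ control, with an unadjusted p of 0.0173 and an adjusted p of 0.215 in the authors' deposited table. Against non-injected embryos Mpc1 in knockdown was at -0.39 ± 0.21, and LacZ control was at 0.09 ± 0.21 (authors' deposited table, adjusted p = 0.214 and 0.998). Mpc1 (chromosome 17, 8282904 to 8297661, plus strand) shares exons with 4930506C21Rik on the opposite strand, a gene listed at a mean normalized count of 906 against 1384 for Mpc1. The value of 4930506C21Rik for knockdown over LacZ control was -0.44 ± 0.21 (authors' deposited table, adjusted p = 0.313). Reads in the overlapping exons cannot be told apart without strand. Mpc1 shares 26.3% of its 50-base stretches with 3 annotated genes, namely 4930506C21Rik, Mpc1-ps and Gm8219. Mpc2, the partner of Mpc1, was at -0.20 ± 0.21 and -0.28 ± 0.22 in knockdown over LacZ control and over non-injected in the authors' deposited table, neither called (adjusted p = 0.670 and 0.380).

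Slc16a1, the main monocarboxylate transporter of many tissues, stood on the log2 scale at -0.05 ± 0.28 in knockdown against LacZ control, and against non-injected embryos at -0.41 ± 0.29 in knockdown and -0.36 ± 0.29 in LacZ control (authors' deposited table, adjusted p = 0.953, 0.350 and 0.996). The sign of the first turns to 0.025 with fold changes centred on the median gene. Slc16a7, a transporter with high affinity for pyruvate, gave 0.72 ± 0.36, 0.57 ± 0.35 and -0.15 ± 0.35 in the same order in the authors' deposited table. An adjusted p was deposited for Slc16a7 only in LacZ control over non-injected (0.998), while the lowest mean count with an adjusted p was 7.93 in knockdown over LacZ control and 9.66 in knockdown over non-injected. The unadjusted p of Slc16a7 in those tables was 0.0546 and 0.161. Slc16a1 lies on chromosome 3 (104638668 to 104658462, plus strand) and Slc16a7 on chromosome 10 (125219270 to 125389465, minus strand). Basigin (Bsg) and embigin (Emb), which escort these transporters to the membrane, were not called: Bsg stood at 0.50 ± 0.24 and Emb at 0.15 ± 0.30 for knockdown over non-injected (authors' deposited table; adjusted p = 0.137 and 0.707).

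Counted over the list, 0 of the 9 members with an adjusted p were called in knockdown over LacZ control, where DESeq2 called 0.899% of the 15572 genes tested, 0.366% higher and 0.533% lower. At an unadjusted p under 0.05, 2 of the 9 were lower (Pdha1 and Mpc1) and 0 higher, against 14.7% of all genes tested, 6.6% higher and 8.07% lower. In knockdown over non-injected 2 of 9 were called, 1 higher and 1 lower, where 15.2% of 14948 genes were called, 7.41% higher and 7.76% lower. At an unadjusted p under 0.05, 3 were higher (Ldhb, Dlat and Pdk3) and 1 lower (Pdha1), where 29.0% of all genes passed, 14.6% higher and 14.4% lower. In LacZ control over non-injected 1 of 10 was called, where 0.792% of 29288 genes were called, 0.529% of them higher and 0.263% lower as shares of all tested. There 2 members were higher at an unadjusted p under 0.05 (Ldhb and Pdk3) and 0 lower, where 7.39% of all genes passed, 4.43% higher and 2.96% lower. The median log2 fold change of the members with an adjusted p was -0.05, -0.12 and 0.06 in knockdown over LacZ control, knockdown over non-injected and LacZ control over non-injected, beside 0.02, 0.05 and 0.00 over all genes tested and -0.08, -0.08 and 0.00 over genes with a mean normalized count of 100 or more, as 9 of the 10 members have. With Slc16a7, which lacked an adjusted p in the first and the second of these, the median over all 10 was -0.02, 0.08 and 0.06, so its sign in knockdown over non-injected rests on that weakly expressed gene. These counts were not tested as a list. Of the 10 genes, Ldhb had the largest fold change in both comparisons with non-injected embryos.

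**Figure D3:**
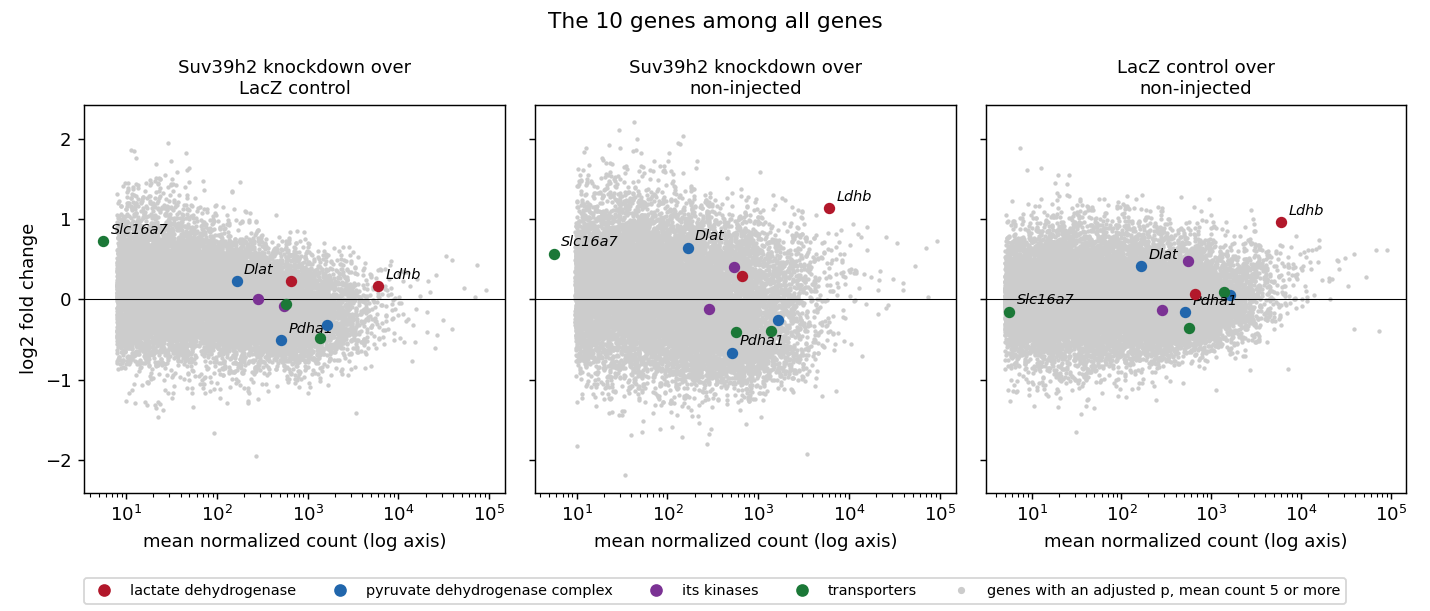
Log2 fold change against mean normalized count (log axis) for the 10 genes (coloured by role) and for all other genes with an adjusted p and a mean count of 5 or more (grey), from the authors' deposited tables. Ldhb, at a mean count of 6028, stands above most genes of like abundance in both comparisons with non-injected embryos, at 1.13 and 0.97, and inside the cloud in knockdown over LacZ control.

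Several transcripts of the oocyte and of the 2-cell stage were also called higher in injected than in non-injected embryos. Of 12 maternal oocyte markers, such as Gdf9, Bmp15 and the zona pellucida genes, 5 were called higher (Zp2, Gdf9, Bmp15, Zar1 and Npm2) and 0 lower in knockdown over non-injected, where 7.41% of all genes tested were called higher. Their median log2 fold change was 0.64 there and 0.41 in LacZ control over non-injected. In the latter DESeq2 called 0, where 0.792% of all genes tested were called. At an unadjusted p under 0.05, 4 maternal markers passed there, all higher, where 4.43% of all genes tested were higher. Of 10 markers of the 2-cell stage found in the tables, such as Zscan4 and Tcstv genes, 5 were called higher in knockdown over non-injected (Zscan4c, Zscan4f, Tcstv1, Tcstv3 and Tdpoz4), with a median of 0.79. In LacZ control over non-injected 2 of them, Tcstv1 and Tcstv3, were called higher, where 0.529% of all genes tested were, and the median was 0.72. In knockdown over LacZ control 0 of either list were called by DESeq2, where it called 0.899% of all genes tested. At an unadjusted p under 0.05, 2 maternal and 1 stage marker were higher, and 0 maternal and 1 stage marker lower. Of all genes tested, 6.6% were higher and 8.07% lower there. The medians of the maternal and stage markers were 0.24 and -0.05. The part of oocyte or stage RNA in the Ldhb result was not tested.

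Markers of cells that could accompany embryos were low. Of 12 cumulus and granulosa markers, 3 had an adjusted p in knockdown over LacZ control, 3 in knockdown over non-injected and 9 in LacZ control over non-injected. DESeq2 called 0 of them, where it called 0.899%, 15.2% and 0.792% of all genes tested in the same order. With so few markers tested, 0 calls cannot be told from those shares. At an unadjusted p under 0.05, Tnfaip6 and Hsd3b1 were higher in knockdown over non-injected in the authors' deposited table, the second without an adjusted p. Of all genes tested, 14.6% were higher there. Of the 12, 10 had a mean normalized count under 10, Inhba was listed at 0, and the highest, Tnfaip6, had 36.5. Of 12 markers of sperm and spermatids 10 were under 10 and Smcp was listed at 0. The exceptions were Odf2, also used by other cells, at 2138, and the testis lactate dehydrogenase Ldhc at 54.8. Of these sperm markers 2 had an adjusted p in knockdown over non-injected, and DESeq2 called Ldhc lower, where 7.76% of all genes tested were lower. It called 0 of 2 in knockdown over LacZ control and 0 of 11 in LacZ control over non-injected. Pgk2, without an adjusted p, was at -0.93 ± 0.34 in knockdown over non-injected (authors' deposited table, unadjusted p = 0.00358).

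**Figure D4:**
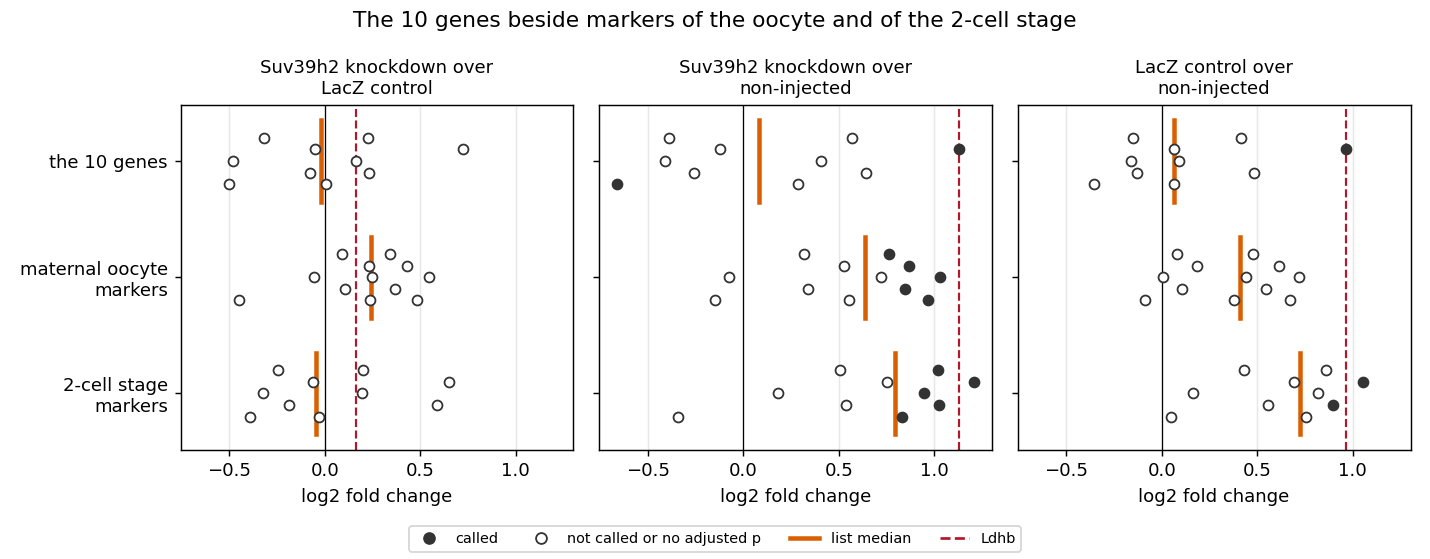
Log2 fold changes of the 10 genes, of 12 maternal oocyte markers and of 10 markers of the 2-cell stage in the 3 comparisons, from the authors' deposited tables; filled points were called, orange bars are list medians and the dashed line marks Ldhb. Ldhb at 1.13 and 0.97 lies above all 12 maternal markers and within the range of the 2-cell markers in the comparisons with non-injected embryos. The maternal and 2-cell medians are 0.64 and 0.79 in knockdown and 0.41 and 0.72 in LacZ control.

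Among other genes around pyruvate and lactate, 25 were in the tables and 21 had an adjusted p in knockdown over non-injected. Of the 21, 3 were called higher and 3 lower, where 7.41% of all genes tested were called higher and 7.76% lower. Pdp2, a phosphatase that reactivates the pyruvate dehydrogenase complex, fell by 1.08 ± 0.27 on the log2 scale (authors' deposited table, adjusted p = 0.00271). With a mean normalized count of 4194 Pdp2 was the most abundant gene of that list. Lias, which makes the lipoyl group that Dlat carries, fell by 0.77 ± 0.22, and Lipt1, which transfers lipoyl groups, rose by 0.97 ± 0.26 (authors' deposited table; adjusted p = 0.00878 and 0.00531). Ldhc, the lactate dehydrogenase of mouse testis, fell by 1.05 ± 0.33 at a mean normalized count of 54.8 (authors' deposited table, adjusted p = 0.0268), the opposite direction to Ldhb. Of the 3 malic enzymes, which make pyruvate from malate, Me1 of the cytosol rose by 0.79 ± 0.20 and Me2 of mitochondria by 0.81 ± 0.22 in knockdown against non-injected embryos (authors' deposited table, adjusted p = 0.00259 and 0.00491). Me3, at a mean normalized count of 12.6, stood at 0.02 ± 0.40 and was not called (authors' deposited table, adjusted p = 0.984).

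The remaining parts of the complex were not called. Pdhx, which anchors the third enzyme, stood at 0.32 ± 0.23 and Dld, that enzyme, at 0.09 ± 0.32 for knockdown over non-injected (authors' deposited table; adjusted p = 0.365 and 0.875). The phosphatase Pdp1 was at 0.09 ± 0.28, its regulator Pdpr at -0.57 ± 0.22 and the kinase Pdk2 at 0.71 ± 0.39 in that comparison (authors' deposited table, adjusted p = 0.877, 0.0639 and 0.226). In LacZ control over non-injected 1 of 24 genes of this list was called, the kinase Pdk4, where 0.792% of all genes tested were called. Pdk4 had a mean normalized count of 3.67, a fold change of 0.23 ± 0.28 and an adjusted p of 4.37e-14 in the authors' deposited table, so the call stands beside a fold change smaller than its own standard error. In knockdown over LacZ control 0 of 21 were called by DESeq2, where 0.899% of all genes tested were called. At an unadjusted p under 0.05, 3 of the 21 were higher and 2 lower, where 6.6% of all genes tested were higher and 8.07% lower.

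Genes of glycolysis lie upstream of pyruvate, and those of the citric acid cycle downstream. Of 23 glycolysis genes 18 had an adjusted p in knockdown over non-injected. Of these 18, DESeq2 called 0, where it called 15.2% of all genes tested. At an unadjusted p under 0.05, 0 of the 18 passed, where 29.0% of all genes tested did, and their median log2 fold change was -0.14. Their count of calls in knockdown over LacZ control was 0 of 18, where 0.899% of all genes tested were called. At an unadjusted p under 0.05, 1 of the 18 was higher and 1 lower there, where 6.6% of all genes tested were higher and 8.07% lower. In LacZ control over non-injected, where 0.792% of all genes tested were called, 1 of 23 was called, the enolase Eno2. Its mean normalized count was 2.24, with a fold change of 0.15 ± 0.30 and an adjusted p of 4.37e-14 in the authors' deposited table. Of 16 genes of the citric acid cycle 0 were called higher and 1 lower in knockdown over non-injected, where 7.41% of all genes tested were called higher and 7.76% lower. At an unadjusted p under 0.05, 2 were higher and 3 lower, where 14.6% of all genes tested were higher and 14.4% lower. Idh3g, a subunit of the NAD-linked isocitrate dehydrogenase, fell by 1.08 ± 0.28 on the log2 scale (authors' deposited table, adjusted p = 0.00271).

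Against LacZ control, Idh3g in knockdown was at -0.87 ± 0.27 and was not called (authors' deposited table; adjusted p = 0.0589). For the citric acid cycle DESeq2 called 0 of 16 in knockdown over LacZ control, where 0.899% of all genes tested were called. It also called 0 of 16 in LacZ control over non-injected, where 0.792% were called. At an unadjusted p under 0.05, 0 were higher and 1 lower in the first, where 14.7% of all genes tested passed. In the second 0 passed, where 7.39% of all genes tested did. The malate-aspartate shuttle, which carries the electrons of lactate oxidation into mitochondria, had 0 calls among 7 genes in each comparison by DESeq2. DESeq2 called 0.899%, 15.2% and 0.792% of all genes tested in knockdown over LacZ control, knockdown over non-injected and LacZ control over non-injected. At an unadjusted p under 0.05 the shuttle's counts were 0 in the first, 1 higher and 1 lower in the second, and 2 lower in the third. Of all genes tested, 14.7%, 29.0% and 7.39% passed there in the same order.

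**Figure D5:**
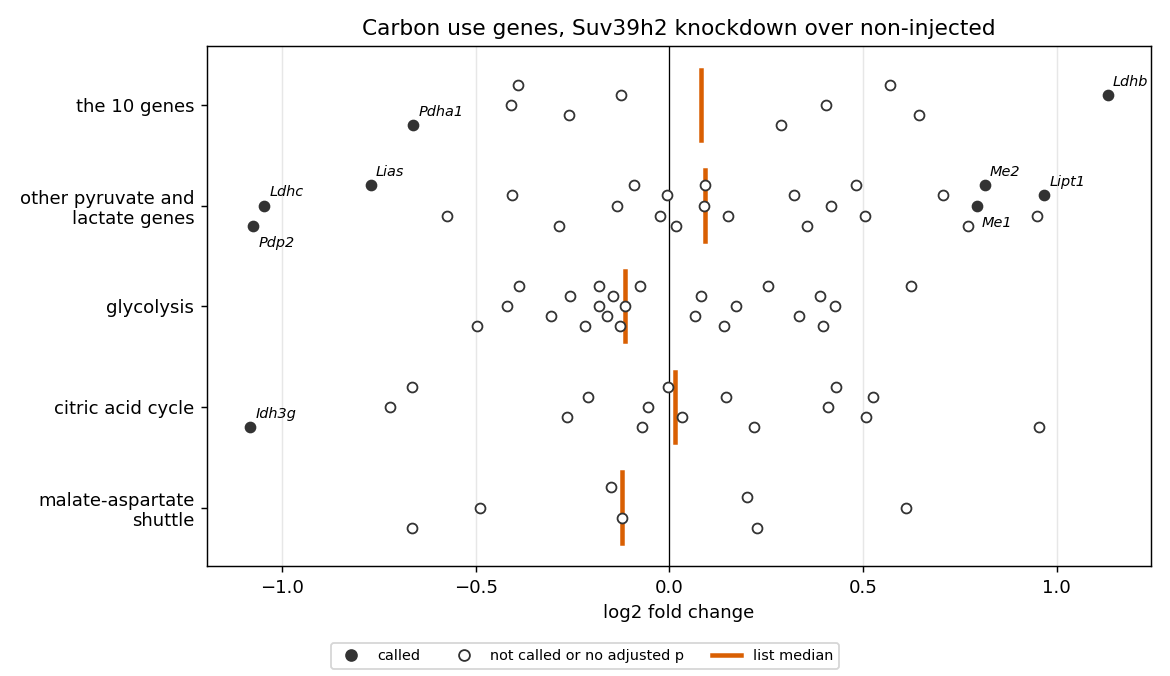
Log2 fold changes for knockdown over non-injected of the 10 genes, other pyruvate and lactate genes, glycolysis, the citric acid cycle and the malate-aspartate shuttle, from the authors' deposited table; filled and named points were called, orange bars are list medians. Called genes lie on both sides of 0, from Idh3g at -1.08 to Ldhb at 1.13, and no glycolysis gene was called.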

How the data were processed

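Polyadenylated RNA of 16 libraries in 3 groups was analysed from the authors' deposited gene tables. Reads were handled with STAR 2.5.2b, SAMtools, HTSeq 0.9.1 and DESeq2 1.18.1 on GRCm38.p5, per the submitters' processing notes. RUVSeq correction and shrunken fold changes are known only from the tables' names. Per the file headers, the tables hold a mean normalized count (a signal after division by size factors), the standard error of a log2 fold change beside the fold change, a Wald score, and p-values before and after adjustment. All 3 tables share 1 normalization. They hold 0 columns of single libraries, so no refit and no depth was possible. Benjamini-Hochberg adjustment over the genes with an adjusted p gave the deposited values back to within 1.84e-05 and was tested on simulated data.

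Symbols, positions, exon overlaps and shared 50-base stretches come from GENCODE vM21, which named 49326 of 49585 identifiers. Intervals are the fold change ± 1.96 standard errors, with fold changes that were shrunken according to the names. Deposited Wald statistics and p-values can differ from the ratio of fold change to standard error. Intervals and the z alternatives therefore need not match them. Python 3.11.15 and pandas 2.3.3 were used. The members and lists were chosen with earlier results of these data known. All 10 members are named. Of other lists, called genes and the fixed partners of the complex and carriers are named, and genes that share sequence with a member were added after seeing the annotation. A gene of the citric acid cycle list is not reported here. The repeat tables were not used here.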

Additional observations from a re-analysis of the deposited data

How the results depend on the processing

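The count of members called was 0, 2 and 1 in knockdown over LacZ control, knockdown over non-injected and LacZ control over non-injected, and stayed within 1.5 times of that in all 18 alternatives. These were adjustment over every gene with a p-value or over genes with a mean count of at least 10 or at least 100, a threshold of 0.1, centring on the median gene with a z from the centred fold change over its standard error, and, chosen after seeing the data, that z without centring. Of 168 member values under them, 165 kept direction and side of the threshold. Direction could change with centring alone, since the other alternatives keep the deposited fold changes. Dlat became called in knockdown over non-injected at a threshold of 0.1 (adjusted p = 0.0734) and with centring (0.0421). In both, the count of members called there rose from 2 to 3, the limit of the range of 1.5 times. Slc16a1 in knockdown over LacZ control turned to 0.025 with centring. Ldhb kept an adjusted p of at most 0.000131 in knockdown and 0.0383 in LacZ control, both against non-injected embryos, and Pdha1 one of at most 0.0440 in knockdown against them. The median subtracted by centring was -0.08, -0.08 and 0.00. Counts of other lists moved by over 1.5 times in 17 cases and did not in 55. The calls of Pdk4 and Eno2, 1 in each list, became 0 with either filter on mean counts and with z, centred or not. In knockdown over LacZ control, 0 calls in the citric acid cycle became 1 with a mean count of at least 100 or a threshold of 0.1, and 0 among other pyruvate and lactate genes became 1 at that threshold. In knockdown over non-injected, 1 call in the citric acid cycle became 2 with a mean count of at least 100 and 3 at that threshold and with centring, 0 in the malate-aspartate shuttle became 1 at that threshold and with a mean count of at least 100, and 0 in glycolysis became 1 over every gene with a p-value. The cause of these shifts was not tested. Over all genes, LacZ control over non-injected had 232 calls, but 62 and 73 with those filters and 20 with z, whether centred or not. Knockdown over LacZ control had 140, but 462 at a threshold of 0.1. No paired analysis was possible because the tables hold no library values, and for the same reason no library could be left out.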

Other observations

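Around the 10 genes, several differences between knockdown and LacZ control had a small unadjusted p without a call. Idh3g had an unadjusted p of 0.000734, the malic enzymes Me2 and Me1 stood at 0.62 ± 0.21 and 0.49 ± 0.19 on the log2 scale, and Lias stood at -0.57 ± 0.21 (authors' deposited table; adjusted p = 0.0589, 0.0974, 0.167 and 0.146). Pdp2 was at -0.54 ± 0.26 in knockdown against LacZ control and at -0.53 ± 0.28 in LacZ control against the non-injected (authors' deposited table, adjusted p = 0.300 and 0.679).

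In LacZ control over non-injected, 131 of the 232 genes called had a fold change of less than 2 of its standard errors in the authors' deposited table. Such genes numbered 2 among the 2268 called in knockdown over non-injected and 0 among the 140 called in knockdown over LacZ control. Pdk4 and Eno2 belong to them: their deposited Wald statistics in LacZ control over non-injected were both 8.71, whereas fold change over standard error was 0.80 and 0.51 (authors' deposited table). In knockdown over non-injected their unadjusted p was 1.46e-20 and 4.51e-24, with no adjusted p in the authors' deposited table. For Ldhb the deposited call and the ratio of fold change to standard error gave a call alike. Whether shrinkage of the fold changes accounts for the calls with a small ratio was not tested.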
